A study of Bos taurus with 9 samples.

Results

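The genes described here were listed as those of enzymes that make or remove lysophosphatidic acid (LPA), a signalling lipid. ENPP2 and PLA1A were placed on the producing side, and PLPP1, PLPP2 and PLPP3 on the side of breakdown. The others were AGPAT1 and AGPAT2, which use LPA to build other lipids. Members were every probe set, the group of probes that reports 1 transcript, whose array annotation gave 1 of these 7 gene symbols alone. All 7 genes were found, by 10 probe sets, among 9155 genes named on the array by 13292 of the 24016 tested probe sets. PLA1A had 2 probe sets, PLPP3 had 3, and each of the other genes had 1.

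LPA acts outside the cell through G protein-coupled receptors, and its level depends on enzymes at both ends of its life. Autotaxin, the product of ENPP2, is secreted and cleaves choline from lysophosphatidylcholine to yield LPA, while lipid phosphate phosphatases of the PLPP family sit in the membrane and remove the phosphate of LPA at the cell surface. Inside the cell, the acyltransferases of the AGPAT family add a fatty acid to LPA and turn it into phosphatidic acid, a precursor of phospholipids and triglycerides.

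Each of 9 Affymetrix arrays measured co-cultured stromal and epithelial cells of bovine endometrium (Holstein and Polish Black and White cows, days 2 to 5 of the oestrous cycle), seeded at 3 stromal cells to 1 epithelial cell. The groups, of 3 arrays each, were LPA+IFNt (LPA at 1e-06 M together with interferon tau, 1000 antiviral units with no volume stated), LPA (its oleoyl form at 1e-06 M) and control (phosphate-buffered saline), and exposure lasted 6 h. No group received interferon tau without LPA among the samples analysed here, so a difference between LPA+IFNt and LPA is the effect of interferon tau in the presence of LPA. Each array held RNA pooled from 3 cows out of 9 in the study, so pools must share cows, and p-values measure the spread between these pools. The labels give neither age nor parity of the cows, and co-cultured cells lack the blood vessels and immune cells of the whole tissue to an extent the labels do not state.

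The values are deposited log2 RMA values, and 1 unit is a 2-fold difference. The labels of the interferon group were borne out by MX2, the gene of an antiviral GTPase, which averaged 9.71 ± 0.13 in LPA+IFNt, 2.17 ± 0.03 in LPA and 2.12 ± 0.01 in control (SD, n = 3 each). ISG15 averaged 14.56 in LPA+IFNt, 8.64 in LPA and 7.93 in control, and MX1 12.81, 7.70 and 7.47. In LPA against control ISG15, MX1 and MX2 lay higher without overlap, as did 1233 of the 24016 tested probe sets. None of these genes was called (limma adjusted p = 0.105 for ISG15 and 0.649 for MX1). All 13 measured epithelial markers and all 11 measured stromal markers lay above the highest value of the bacterial trp control probe sets (2.80), a level taken here as background. Of the leukocyte markers 5 of 12 did, of the smooth muscle and pericyte markers 5 of 7, and of the endothelial markers 0 of 8, with PECAM1, CDH5 and VWF among those at background. Of the 10 probe sets of the LPA enzymes, 8 had a mean above that level, and both probe sets of PLA1A did not. RMA makes the arrays' distributions alike, so a change shared by most transcripts would not be seen.

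The first question was whether 6 h of LPA changed the genes that control its own level. No enzyme gene was called: 0 of 10 probe sets passed an adjusted p of 0.05 in limma, likewise 0 in a fit that has the replicate number as a block, and 0 had an unadjusted p under 0.05 (1 with the block). Over all probe sets 17, or 0.0708%, passed in LPA against control (0.0458% with the block), so a count of 0 is near the background. The arrays of LPA and control overlapped for all 10 (for PLPP2 only by a tie), where the groups stood apart for 10% of all probe sets. Log2 fold changes of the enzymes ran between -0.22 and 0.032, with a median of -0.017, beside a median of 0.0023 over all probe sets. Adding interferon tau gave no call either. In LPA+IFNt against control 0 of 10 passed, where 5.34% of all probe sets did (8.68% with the block, and again 0 of the 10), and in LPA+IFNt against LPA 0 of 10, where 6.54% did (9.66% with the block, and again 0 of the 10). The moderated F test over the 3 groups called 0 of 10 and 5.99% of all probe sets. At an unadjusted p under 0.05 stood 0 of 10 and 1 of 10, beside 16.7% and 17.5% of all probe sets (8.3% in LPA against control). In the blocked fit 1, 4 and 2 of the 10 had an unadjusted p under 0.05 for LPA against control and for LPA+IFNt against control and against LPA, beside 12.9%, 22.8% and 22.5% of all. LPA+IFNt arrays lay apart from control for 3 of the 10 (1 higher, 2 lower), beside 23.1% of all, and apart from LPA for 0 of the 10, beside 18.7%.

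**Figure D1:**
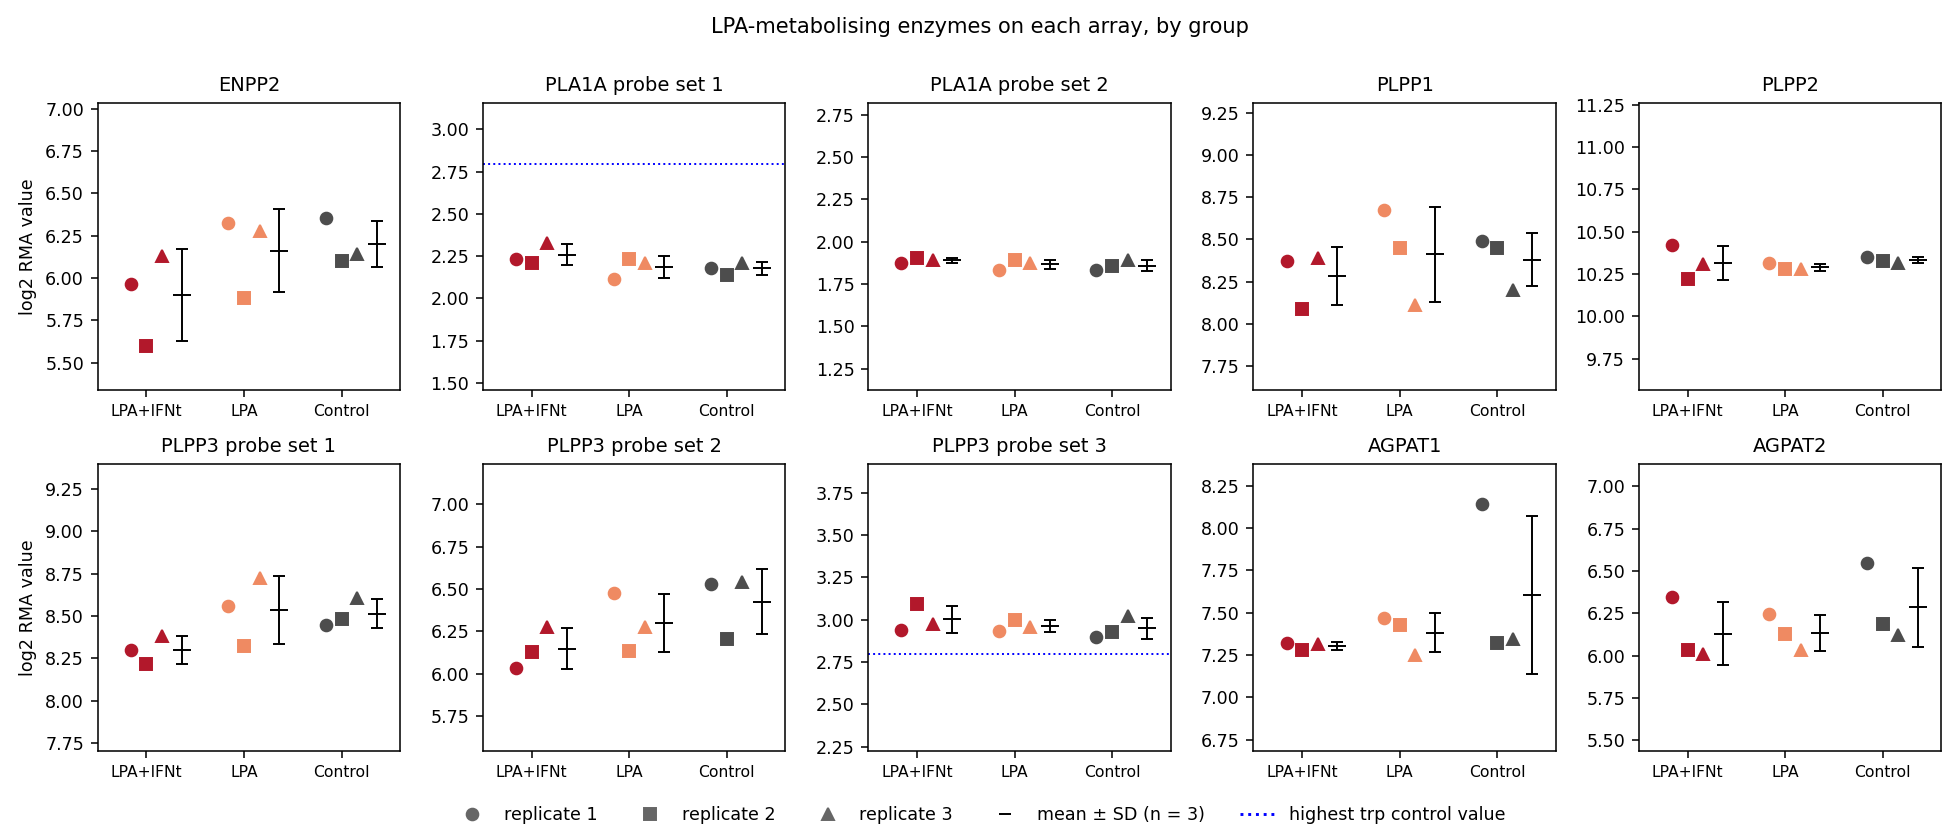
Log2 RMA value (vertical axis) of each of the 10 probe sets on each array, in the groups LPA+IFNt, LPA and control. Every panel spans the same number of log2 units. Points are arrays, shaped by replicate number, and the bar beside them is the mean ± SD of 3 arrays; the dotted line is the highest trp control value (2.80). The groups overlap in most panels, and control replicate 1 stands alone at 8.14 for AGPAT1.

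The data allow a statement about size as well. Over the 8 probe sets above background and 3 comparisons, all 24 confidence intervals (95%) of the log2 fold change lay between -0.77 and 0.40, that is between 0.585-fold and 1.32-fold. These intervals did not reach a 2-fold difference in either direction. PLA1A is left out of this statement, since signal at background bounds no change of its transcript, and PLPP3 probe set 3, just above background, adds little to it. The widest intervals were those of AGPAT1, and the residual SD of the 10 probe sets ran from 0.0254 to 0.278. Its median was 0.150, beside 0.0824 over all probe sets and 0.122 over those above background, so the enzymes varied more than the typical probe set.

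**Figure D2:**
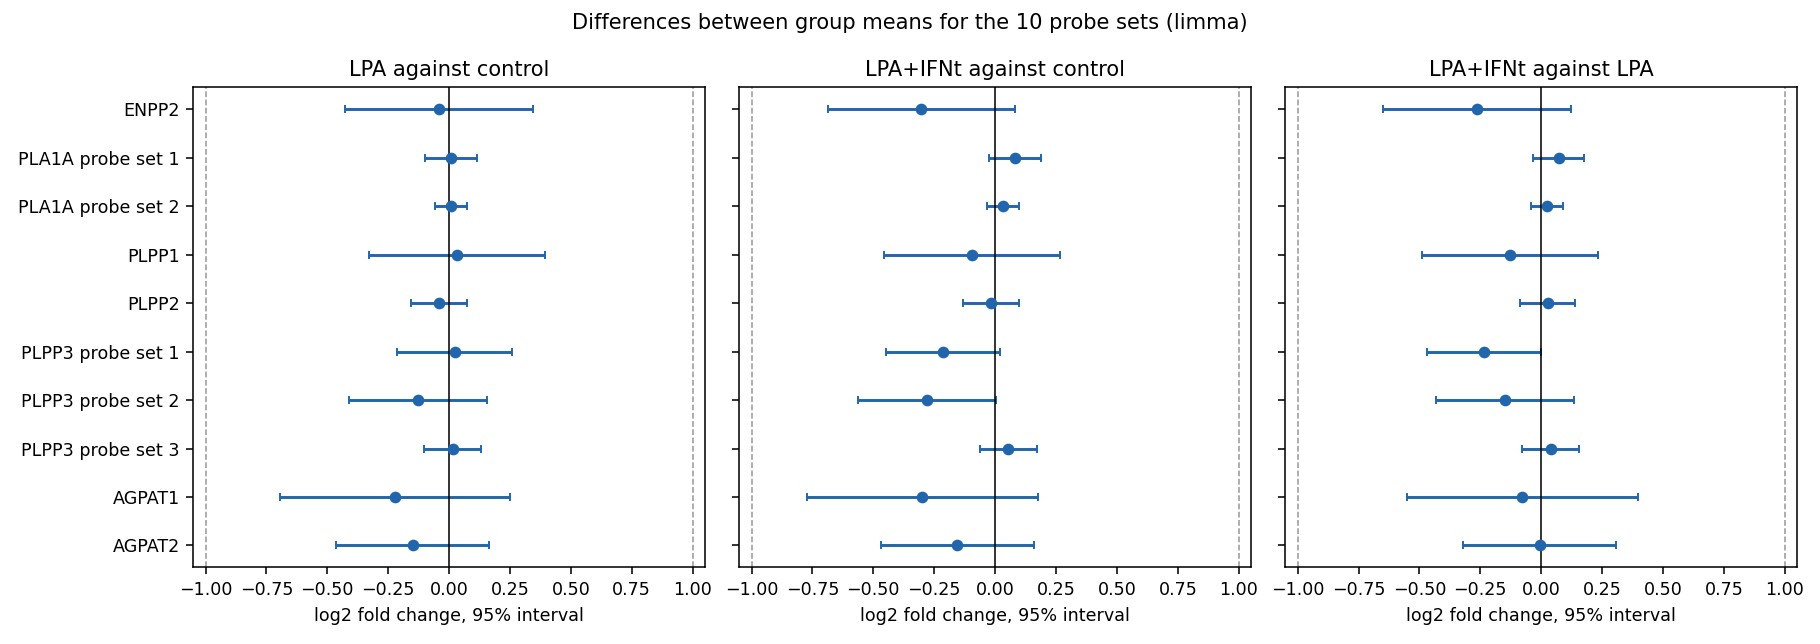
Log2 fold change (horizontal axis) of each probe set with its interval (95%, limma) in the 3 comparisons. Dashed lines mark a 2-fold difference in each direction. All 30 intervals stay between -0.77 and 0.40, and the PLPP3 probe set 1 in LPA+IFNt against LPA is the one whose interval does not include 0.

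On the producing side, ENPP2 had 5.97, 5.60 and 6.13 in LPA+IFNt, 6.32, 5.88 and 6.28 in LPA, and 6.36, 6.10 and 6.14 in control (replicates 1, 2 and 3). The lowest value was that of LPA+IFNt replicate 2, and the LPA+IFNt arrays overlapped both other groups. The difference between LPA and control was -0.040 (SE 0.17, interval -0.43 to 0.35, adjusted p = 1.00). LPA+IFNt stood at -0.30 against control (SE 0.17, interval -0.69 to 0.08, limma adjusted p = 0.422) and at -0.26 against LPA (interval -0.65 to 0.12, adjusted p = 0.523). These are 0.811-fold and 0.833-fold, and neither passed the test. Without LPA+IFNt replicate 2 they were -0.15 and -0.11, and leaving out each array in turn gave -0.42 to -0.15 against control and -0.40 to -0.11 against LPA.

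Part of the spread of ENPP2 followed the replicate number, which the pools of different groups share. Replicate 2 was the lowest array in each of the 3 groups, so leaving it out of LPA+IFNt alone leaves the numbers unequal between groups. Within numbers, LPA+IFNt minus control was -0.39, -0.50 and -0.013, and LPA+IFNt minus LPA was -0.36, -0.28 and -0.15, so LPA+IFNt was lower in 3 of 3 pairs each time. The residual SD of ENPP2 was 0.225, and 0.135 with the number as a block. In the blocked fit the unadjusted p was 0.022 against control and 0.036 against LPA, with adjusted p of 0.138 and 0.182, so the test over all probe sets was still not passed.

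PLA1A encodes a secreted phospholipase that removes a fatty acid from phosphatidylserine, a step that does not itself yield LPA. Its brighter probe set ran from 2.21 to 2.33 in LPA+IFNt, from 2.11 to 2.23 in LPA and from 2.14 to 2.21 in control, and its other probe set from 1.83 to 1.91 over all arrays. All 9 arrays lay under the trp level for both. The brighter probe set had the LPA+IFNt arrays above all control arrays, as 10.2% of all probe sets did, but both neighbouring values round to 2.21, and the log2 fold change was 0.080 (adjusted p = 0.436). At background level such a value carries no information about PLA1A transcripts.

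Among the phosphatases, PLPP2 was the steadiest of the members above background. It had 10.42, 10.22 and 10.31 in LPA+IFNt, 10.31, 10.28 and 10.28 in LPA, and 10.35, 10.33 and 10.31 in control. Groups overlapped, though LPA and control only by a tie, since the highest LPA value equalled the lowest control value. All differences lay between -0.042 and 0.026. The interval of LPA against control was -0.16 to 0.07, and that of LPA+IFNt against control -0.13 to 0.10.

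PLPP1 had a wider spread than PLPP2. It had 8.38, 8.09 and 8.39 in LPA+IFNt, 8.67, 8.45 and 8.11 in LPA, and 8.49, 8.45 and 8.20 in control. All 3 groups overlapped. The log2 fold change was 0.032 for LPA against control (interval -0.33 to 0.39), -0.096 for LPA+IFNt against control (interval -0.46 to 0.27) and -0.13 for LPA+IFNt against LPA (interval -0.49 to 0.23), with limma adjusted p of 1.00, 0.738 and 0.678. Within replicate numbers the sign differed from pair to pair, since LPA+IFNt minus control was -0.11, -0.36 and 0.19.

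PLPP3 encodes the phosphatase of this family that is required for vascular development in the mouse. Its probe set 1 (the brightest) had 8.30, 8.22 and 8.39 in LPA+IFNt, 8.56, 8.32 and 8.72 in LPA, and 8.45, 8.48 and 8.61 in control. Every LPA+IFNt array lay below every control array, as for 12.8% of all probe sets and for 3023 of the 15053 above background. Of the LPA arrays, 1 lay among the LPA+IFNt values. In limma, the log2 fold change was -0.21 against control (SE 0.10, interval -0.45 to 0.02, adjusted p = 0.352) and -0.24 against LPA (interval -0.47 to -0.00081, unadjusted p = 0.0494, adjusted p = 0.284). With the block, the adjusted p was 0.113 and 0.0810. It passed only when LPA replicate 2 was left out, with -0.34 against LPA and an adjusted p of 0.0427.

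The other probe sets of PLPP3 were less uniform. Probe set 2 had 6.03, 6.13 and 6.28 in LPA+IFNt, 6.48, 6.14 and 6.28 in LPA, and 6.53, 6.20 and 6.54 in control. Its LPA+IFNt arrays overlapped both groups, with -0.28 against control (interval -0.56 to 0.0047, adjusted p = 0.307) and -0.15 against LPA (adjusted p = 0.615). Probe set 3 ran from 2.90 to 3.09 over all arrays, just above the trp level, and stood at 0.054 against control and 0.039 against LPA. So probe sets 1 and 2 had the same sign in both comparisons with LPA+IFNt, only probe set 3 differed, and none was called. LPA against control gave 0.023, -0.13 and 0.015 for probe sets 1, 2 and 3.

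Of the acyltransferases, AGPAT1 had 7.32, 7.28 and 7.32 in LPA+IFNt, 7.47, 7.42 and 7.25 in LPA, and 8.14, 7.32 and 7.35 in control. Control replicate 1 was the highest array, and all other arrays lay between 7.25 and 7.47. The LPA+IFNt arrays were all below the control arrays, though the nearest values of both groups round to 7.32, and the mean difference of -0.30 (SE 0.20, interval -0.77 to 0.17, adjusted p = 0.506) rested on that array. Without control replicate 1 it was -0.030, and LPA against control was 0.047 in place of -0.22.

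AGPAT2, whose human counterpart is mutated in a congenital lipodystrophy, had 6.35, 6.03 and 6.01 in LPA+IFNt, 6.25, 6.13 and 6.03 in LPA, and 6.55, 6.18 and 6.12 in control. Replicate 1 was the highest and replicate 3 the lowest in each group, and the groups overlapped. LPA+IFNt and LPA stood at -0.16 (interval -0.47 to 0.16, adjusted p = 0.573) and -0.15 (interval -0.46 to 0.17, adjusted p = 0.948) against control. Without control replicate 1, the highest array, the differences were -0.023 and -0.016. Since replicate 1 was highest in each group, leaving it out of control alone leaves the numbers unequal between groups. Within numbers, LPA+IFNt minus control was -0.20, -0.15 and -0.11, and LPA minus control was -0.30, -0.054 and -0.088. Both groups were lower than control in 3 of 3 pairs of equal number. The residual SD was 0.0717 with the block and 0.183 without it, and the adjusted p of the blocked limma fit was 0.167 for LPA+IFNt and 0.335 for LPA, each against control.

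Seen together, 4 of the 10 probe sets had the same replicate number lowest in all 3 groups, and 4 had the same number highest. Over all probe sets these shares were 33.6% and 16.4%, and the share expected by chance was not computed. Of the 4 with a shared lowest number, the dimmer PLA1A probe set and PLPP3 probe set 3 lay at or just above background. In LPA+IFNt against control 5 of the 10 were lower in all 3 pairs of equal number, where 20.9% of all probe sets were. These 5 were ENPP2, PLPP3 by probe sets 1 and 2, AGPAT1 and AGPAT2. All 5 were among the 8 above background, and the share over all probe sets above background was not computed. In LPA against control 3 of the 10 were lower in all 3 pairs (14.2% of all), and in LPA+IFNt against LPA 2 of the 10 (20.5%). The median log2 fold change of the 10 was -0.13 in LPA+IFNt against control, beside 0.018 over all probe sets, and -0.18 for the 8 above background, beside -0.037 over all 15053 probe sets above it. The 2 comparisons with LPA+IFNt share its arrays, and the 2 against control share the control arrays.

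**Figure D3:**
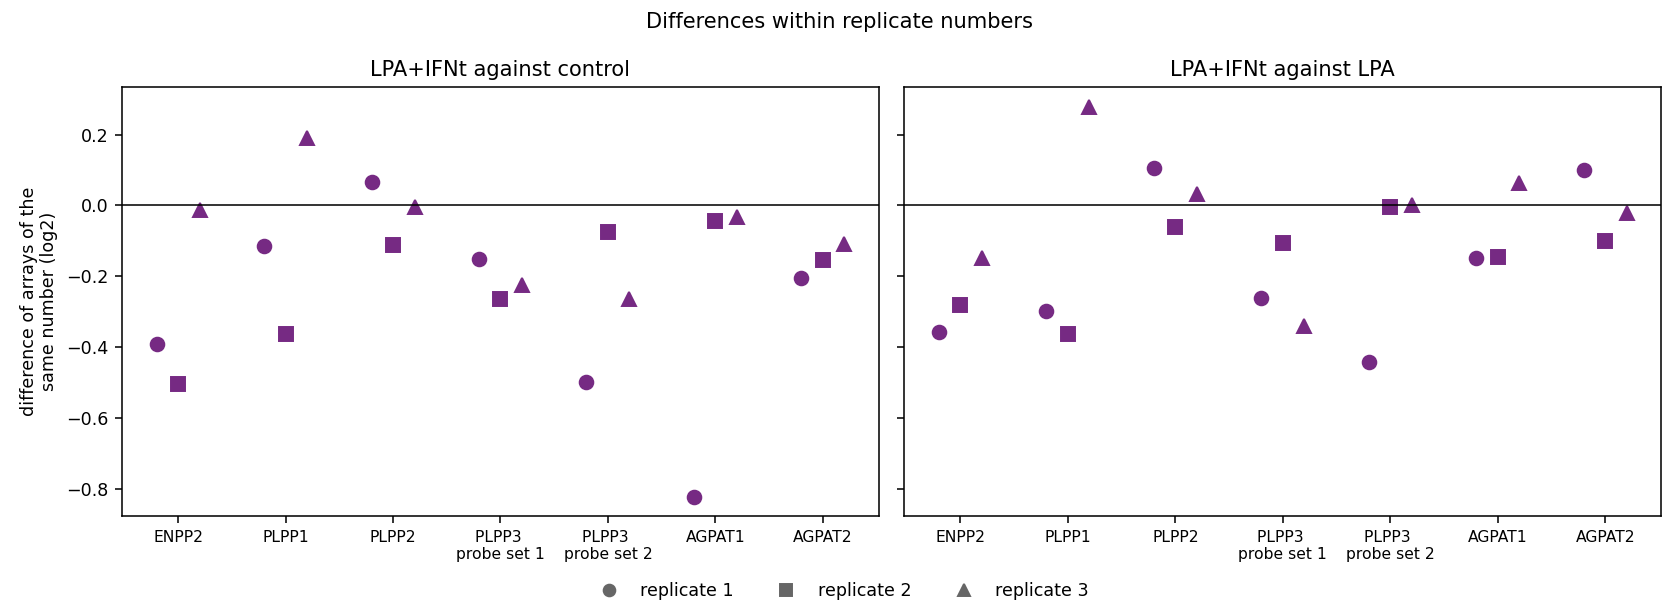
Difference in log2 value between arrays of the same replicate number (vertical axis), LPA+IFNt minus control on the left and LPA+IFNt minus LPA on the right, for the 7 probe sets well above background. Points are shaped by number. ENPP2 and PLPP3 probe set 1 lie below 0 at every number in both panels, PLPP1 lies on both sides, and AGPAT1 against control has 1 point at -0.82 and the others near 0.

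Some stromal markers were called in the comparisons with LPA+IFNt, where no enzyme gene was. The summed level of the 11 stromal markers lay between 16.44 and 16.47 (log2) in LPA+IFNt, 16.68 and 16.79 in LPA, and 16.60 and 16.73 in control. Of these markers 3 of 11 fell in LPA+IFNt against control and 5 of 11 against LPA. The smooth muscle and pericyte sum was 10.36 to 10.58, 11.01 to 11.49 and 10.74 to 10.95 in LPA+IFNt, LPA and control. The summed epithelial level was 15.76 to 15.83, 15.74 to 15.77 and 15.73 to 15.82 in LPA+IFNt, LPA and control. In LPA+IFNt against LPA 1 of 13 epithelial markers and 1 of 7 smooth muscle and pericyte markers fell, and 1 of 12 leukocyte markers rose. In LPA+IFNt against control 1 epithelial and 1 leukocyte marker rose. Of the 9155 named genes, 287 were called lower and 314 higher in LPA+IFNt against control, and 381 lower and 343 higher against LPA. The part of these markers in the values of ENPP2 and PLPP3 was not tested. In such mixed cultures fewer cells of a type and less RNA per cell cannot be told apart.

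Of 57 further genes of LPA metabolism and signalling, 30 were named on the array, 23 of them above background, and the others were not analysed here. LPA against control gave 0 calls among the 30, where 0.12% of all named genes were called. LPA+IFNt against control gave 0 higher and 2 lower (6.56% of named genes called), and LPA+IFNt against LPA again 0 higher and 2 lower (7.91%). These shares are near the background, and no difference between these genes and the 7 enzymes was tested. At an unadjusted p under 0.05 (limma) stood 4 of the 30 in LPA against control, beside 935 of the 9155 named genes. In LPA+IFNt against control and against LPA it was 3 of the 30 each, beside 1970 and 1999 of the named genes. The medians of the 30 were -0.016, -0.085 and 0.017, beside -0.0027, -0.0063 and 0.0099 over all named genes, each gene by its brightest probe set.

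GPAM makes LPA from glycerol 3-phosphate in mitochondria, the first committed step of glycerolipid synthesis. It had 5.69, 5.85 and 5.77 in LPA+IFNt, 6.02, 6.21 and 6.40 in LPA, and 6.24, 6.34 and 6.50 in control. All LPA+IFNt arrays lay below all arrays of both other groups. GPAM fell by 0.59 in LPA+IFNt against control (SE 0.10, limma adjusted p = 0.0175, or 0.00672 with the block). Against LPA it stood at -0.44 (adjusted p = 0.0511), and passed with the block (0.0164). The call against control was lost without LPA+IFNt replicate 1 (0.0657) or 3 (0.0613) or control replicate 2 (0.0621) or 3 (0.0574), and that against LPA was gained without LPA replicate 1 (0.0312). The related GPAT3 and GPAT4, enzymes of the endoplasmic reticulum, stood at 0.13 and -0.15 in LPA+IFNt against control and were not called.

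AGPAT5, an acyltransferase of the same family as AGPAT1 and AGPAT2, had 5 probe sets. The brightest had 8.94, 8.62 and 8.92 in LPA+IFNt, 9.54, 9.28 and 9.52 in LPA, and 9.06, 8.97 and 8.90 in control. LPA arrays were the highest, and LPA+IFNt arrays overlapped control. AGPAT5 fell by 0.62 in LPA+IFNt against LPA (SE 0.10, adjusted p = 0.0127), a call made by 4 of its 5 probe sets and lost for the brightest without LPA replicate 1 (0.0562). LPA against control gave 0.47 (SE 0.10, adjusted p = 0.208), and 0.53, 0.48 and 0.44 for 3 further probe sets, while the last stood at -0.13. The one at 0.53 passed with the block (adjusted p = 0.0317). The one at -0.13 was also the 1 of 5 called lower in LPA+IFNt against control (-0.27, limma adjusted p = 0.0448), and its call was lost with the block (0.0674).

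**Figure D4:**
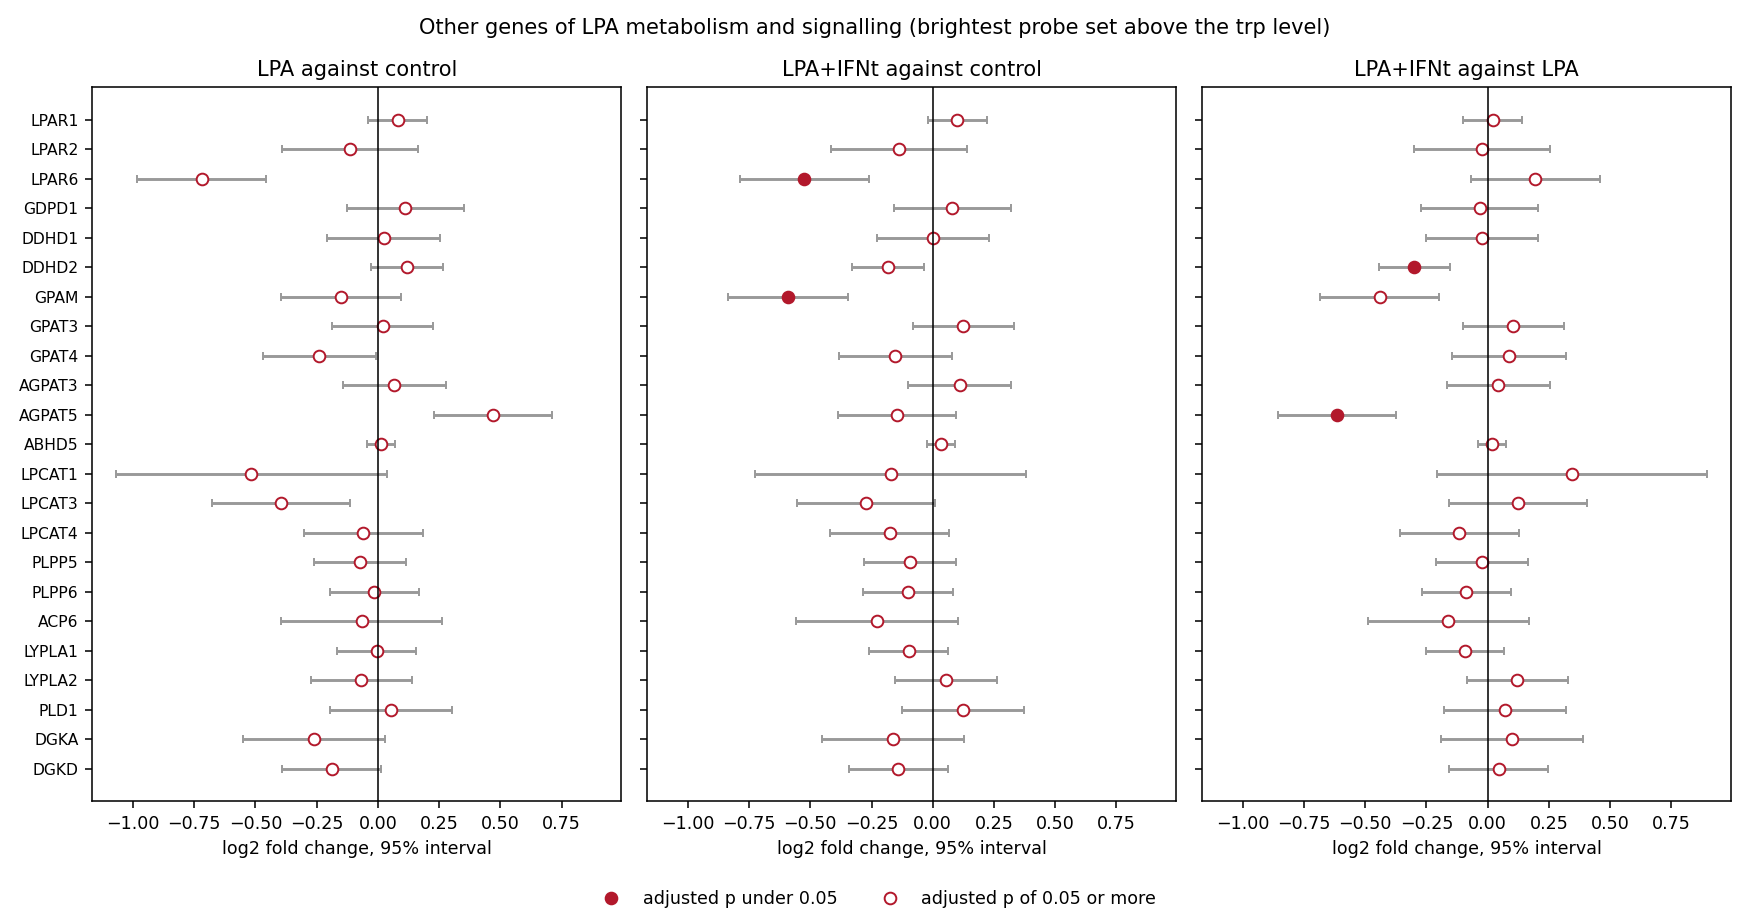
Log2 fold change (horizontal axis) with its interval (95%, limma) for the 23 further pathway genes above background, each by its brightest probe set, in the 3 comparisons. Filled points passed an adjusted p of 0.05, which are LPAR6 and GPAM in LPA+IFNt against control and DDHD2 and AGPAT5 in LPA+IFNt against LPA.

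DDHD2, an intracellular phospholipase, fell by 0.30 in LPA+IFNt against LPA (SE 0.063, limma adjusted p = 0.0331). The call was made by 1 of 2 probe sets, was lost with the block (0.0580), and was lost on leaving out any array but LPA replicate 2 (adjusted p of 0.0520 to 0.108). The receptor gene LPAR6 stood at -0.52 in LPA+IFNt against control (adjusted p = 0.0403, or 0.00676 with the block), and the call held without LPA+IFNt replicate 1 and was lost without any other array (0.0549 to 0.134). In LPA against control LPAR6 stood at -0.72 (SE 0.11, adjusted p = 0.0819, or 0.0561 with the block), lower in 3 of 3 pairs of equal number with no overlap of the groups, and it passed at 0.0499 without LPA+IFNt replicate 1. In LPA+IFNt against LPA it stood at 0.20 (adjusted p = 0.477). In the lists with no call the smallest p belonged to ACP6, a mitochondrial LPA phosphatase (-0.23 in LPA+IFNt against control, adjusted p = 0.479), the lysophospholipase gene LYPLA1 (-0.097, adjusted p = 0.517) and the diacylglycerol kinase gene DGKD (-0.19 in LPA against control, adjusted p = 0.644).

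The genes whose pattern over the 9 arrays was most like ENPP2 were DTD1 (Pearson r = 0.973), SFXN4 (0.969) and GK (0.969), the last encoding glycerol kinase, which forms glycerol 3-phosphate. For PLPP3 probe set 1 they were SERPINA14 (0.969), the gene of a uterine serpin also known as uterine milk protein, C21H15orf40 (0.960) and the sulphotransferase gene SULT1A1 (0.959). For PLA1A, which lay at background, PPARD (0.920), ADCK1 (0.903) and ACVR2B (0.893) came first. Each is the top of 7029 or 7030 genes above background, and the arrays compared share cows, so these are descriptions. None of the 9 was called in any comparison without the block. With it, 3 that resemble PLPP3 were: SERPINA14 (adjusted p = 0.0412 in LPA+IFNt against control, 0.0366 against LPA), C21H15orf40 (0.0285 and 0.0400) and SULT1A1 (0.0496 against LPA). With the block, 8.68% of all probe sets were called in LPA+IFNt against control and 9.66% against LPA. These genes were picked by likeness to PLPP3 on the same arrays, so their calls add no support. SERPINA14 averaged 9.26 in LPA+IFNt, 10.29 in LPA and 10.27 in control, and the difference from control had an adjusted p of 0.210 without the block, and GK averaged 4.79, 5.47 and 5.51 (-0.72, adjusted p = 0.310).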

How the data were processed

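RNA of 9 pooled samples (100 ng each) was measured on Affymetrix bovine arrays. The deposited log2 values came from the authors' use of Partek and RMA, as the submitters' processing notes name them without versions. That the logarithm is to base 2 rests on the range of the values. No genome build is named, so no coordinates are given, and sequences were not used here.

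Of 24128 probe sets, 112 Affymetrix controls were left out and 24016 tested. Symbols were taken from the annotation table of the array, in which 13292 had 1 symbol, 86 several and 10638 none; 13263 were found by gene identifier in a RefSeq table (ARS-UCD2.0), which changed 0 symbols. Members and gene lists were chosen with earlier results of these data known. The text names all members, pathway genes past the threshold in any comparison or, in a list with none, the one with the smallest p, and the 3 genes most correlated with ENPP2 and with 2 other members of smallest F-test p.

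All 9 arrays entered 1 fit in limma 3.58.1 (R 4.3.3) (6 residual degrees of freedom), two-sided, with Benjamini-Hochberg adjustment over all tested probe sets and a threshold of 0.05, without filter or covariate. The moderated F test called 0 of the 10 member probe sets (0 at an unadjusted p under 0.05, and 0 with the block) and 5.99% of all. The code was tested on simulated data. Array medians lay between 4.30 and 4.38. The number of arrays limits the precision.

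Deviations from group means correlated at 0.192 to 0.497 in all 9 pairs of arrays with the same replicate number, and at -0.496 to 0.141 in the 18 other pairs, so numbers were taken to pair the samples, from the data and not from the labels. Alternatives were the block, 2 other scalings, a filter on dim probe sets, other variance models, fits on 6 arrays, averaged probe sets and leaving out each array.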

Additional observations from a re-analysis of the deposited data

How the results depend on the processing

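The 10 probe sets were recomputed under 17 other settings, giving 495 values, of which 466 kept direction and side of the threshold. Several of these settings cannot move a log2 fold change, so direction was fixed in advance there and only the p-value could change. These are the block, the dim filter, the variance models, the 6-array fits and leaving out an array outside the comparison. Averaging could not move it for a gene with 1 probe set. Of the 495 values, 1 passed, PLPP3 probe set 1 in LPA+IFNt against LPA without LPA replicate 2 (adjusted p = 0.0427), so that its count of member calls ran from 0 to 1. The other 28 changed sign, 6 of them outside the leave-one-out fits. These 6 were, in LPA against control, PLA1A (-0.0067 and -0.0082) and PLPP3 probe set 3 (-0.00014) with arrays centred on their medians and PLPP3 with probe sets averaged (-0.031), and, with centring on spike-in probe sets, PLPP2 in LPA+IFNt against control (0.029) and AGPAT2 in LPA+IFNt against LPA (0.014).

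Leaving out each array gave, for LPA against control, ranges of -0.12 to 0.10 for ENPP2, -0.015 to 0.045 and -0.0067 to 0.023 for PLA1A, -0.099 to 0.18 for PLPP1, -0.072 to 0.13 and -0.0092 to 0.051 for PLPP3 probe sets 1 and 3, and -0.36 to 0.047 for AGPAT1. For LPA+IFNt against control they were -0.18 to 0.0033 for PLPP1 and -0.068 to 0.033 for PLPP2. For LPA+IFNt against LPA they were -0.28 to 0.0032 for PLPP1, -0.026 to 0.075 for PLPP2, -0.0060 to 0.070 for PLPP3 probe set 3 and -0.11 to 0.052 for AGPAT2.

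Over all probe sets, LPA against control gave 17 calls, 11 with the replicate number as a block, 49 with spike-in centring, 37 without dim probe sets, 50 with a trended, robust prior, 0 without variance moderation (1476 at an unadjusted p under 0.05, limma), 1 on 6 arrays, 28 with averaged probe sets, and 0 to 169 on leaving out 1 array. The 0 came without LPA replicate 1 (1739 unadjusted) or control replicate 2 (1520), and the 169 without LPA replicate 2. LPA+IFNt against control gave 1282, 2085 with the block, 788 without moderation and 791 to 1352 on leaving out 1 array. LPA+IFNt against LPA gave 1571, 901 without moderation, 1004 on 6 arrays and 954 to 2204 on leaving out 1 array. Among the 30 pathway genes, the calls were 0 to 1 for LPA against control on leaving out 1 array. For LPA+IFNt against control they were 0 with spike-in centring or without moderation, 1 on 6 arrays and 0 to 1 on leaving out 1 array. For LPA+IFNt against LPA they were 1, 1, 0 and 1 to 2 in the same order. The causes were not tested. The block changed no call of the 7 enzyme genes. The number of arrays and, for PLA1A, signal at background limit what could be seen.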
